A study of Mus musculus with 9 samples.

Results

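The genes described here are 9 myogenic transcription factors and co-factors: Pax3, Pax7, Six4, Six5, Eya1, Eya2, Meox1, Meox2 and Lbx1. They were chosen by name, as every non-control probe that carries one of these gene names, whatever its signal. That gave 13 of 41174 probes, on 22 spots of each array, and 9 of 27597 gene names. For 7 of the 9 genes a probe was well above background, by the scanner software's own flag, on at least 3 of the 9 arrays, which was the condition for a test. Six4 and Lbx1 did not meet it and are described without one.

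RNA of sorted mouse cells was measured on 9 single-colour Agilent arrays, 3 for each of 3 groups. The groups iPax3 and iPax7 were mononucleated cells re-isolated from a leg muscle, the tibialis anterior, of mice of the strain NSG/NSGmdx4cv aged 3 months, after injection of myogenic progenitors derived from pluripotent stem cells. The third group was adult satellite cells, which are stem cells that lie on the muscle fibre, from the same muscle of Pax7-ZsGreen mice of the same age. The labels give 1500 sorted cells, 3 mice for each line and 3 separate experiments, and the RNA was amplified before labelling. The lines are named after Pax3 and Pax7, but how each factor was expressed in them, and whether it was active at re-isolation, is not given in the sources used here. Neither is the gate of the sort, so whether the reporter named in the satellite strain was used to choose those cells cannot be said here. If it was, the Pax7 level of the satellite cells is tied to how they were picked. Re-isolated and satellite cells also came from different strains and lay on different slides scanned on different days, which cannot be told apart from the cell type.

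Pax3 and Pax7 are paired-box transcription factors that stand near the top of the myogenic hierarchy. Pax3 acts mainly in the somite and in migrating muscle precursors of the embryo, and Pax7 in fetal and adult muscle stem cells. Homeodomain proteins encoded by genes such as Six4 and Six5 bind DNA and recruit Eya proteins, which are co-activators with phosphatase activity, and together they act upstream of and beside the Pax genes. Meox1 and Meox2 are homeodomain factors of the somite and limb mesenchyme. Lbx1 is a homeodomain factor of muscle precursors that migrate into the limb.

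Pax3, Eya1, Meox1 and Meox2 were each read by a pair of probes that gave different values, so the bases that tell the readings apart are given here with those of the only Pax7 probe. Each line holds the first 30 bases, 5′ to 3′, of a probe of 60 bases, copied from the array files. No base is set in capitals, because no motif was searched for.
Pax3 A_52_P169747: agccagcagtcatatatcctctcttatttc
Pax3 A_51_P315734: aaatattagtctcgatcctttgataccgtg
Pax7 A_51_P295131: ccttgaccccaacaggttttcccaactgtc
Eya1 A_51_P375378: atccagtgaaagtaagccatgagaatgttc
Eya1 A_52_P36315: aaatggccagtgttgagacctcttcatttg
Meox1 A_51_P463536: tattagatggtggatctccagatcctgctg
Meox1 A_52_P327923: tggctcctgtgtctaaggacggagaggata
Meox2 A_52_P326096: atctgaccagactgagaagatatgagatag
Meox2 A_51_P383001: agacattaggatcataggcaaatcagttac
The array design places the probes on the mouse build mm8. The Pax3 probes lie at chr1:78066755-78066814 and chr1:77986048-77986107, both on the minus strand, and the design takes them from different transcripts. The Pax7 probe lies at chr4:139010525-139010584 on the minus strand. The Eya1 probes lie at chr1:14155865-14155924 and chr1:14154286-14154345 on the minus strand. The Meox1 probes lie at chr11:101693573-101693613, which covers 41 of the probe's 60 bases, and at chr11:101694188-101694247, on the minus strand. Of the Meox2 probes on the plus strand, A_52_P326096 runs from chr12:37677696 to chr12:37688419, so its 60 bases are split over 10724 bases of genome, and A_51_P383001 lies unsplit at chr12:37689488-37689547. Exons and untranslated regions of these genes were not analysed here.

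Across the 9 genes, Meox2 rose in re-isolated cells, and it was the only one of the 7 tested that passed the test between re-isolated and satellite cells. Pax7 was lower in re-isolated cells by a large difference that missed the threshold. Six5 and Eya2 had their lowest group mean in the iPax3 cells, and the arrays of Eya1 and Meox1 overlapped between all 3 groups by the probe that stands for each gene. Pax3 was near the background limit on most arrays. All levels below are log2 signals from which the array's 75th percentile was subtracted, so that a level of 0 is that percentile, and they set a probe only against itself on other arrays.

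**Figure D1:**
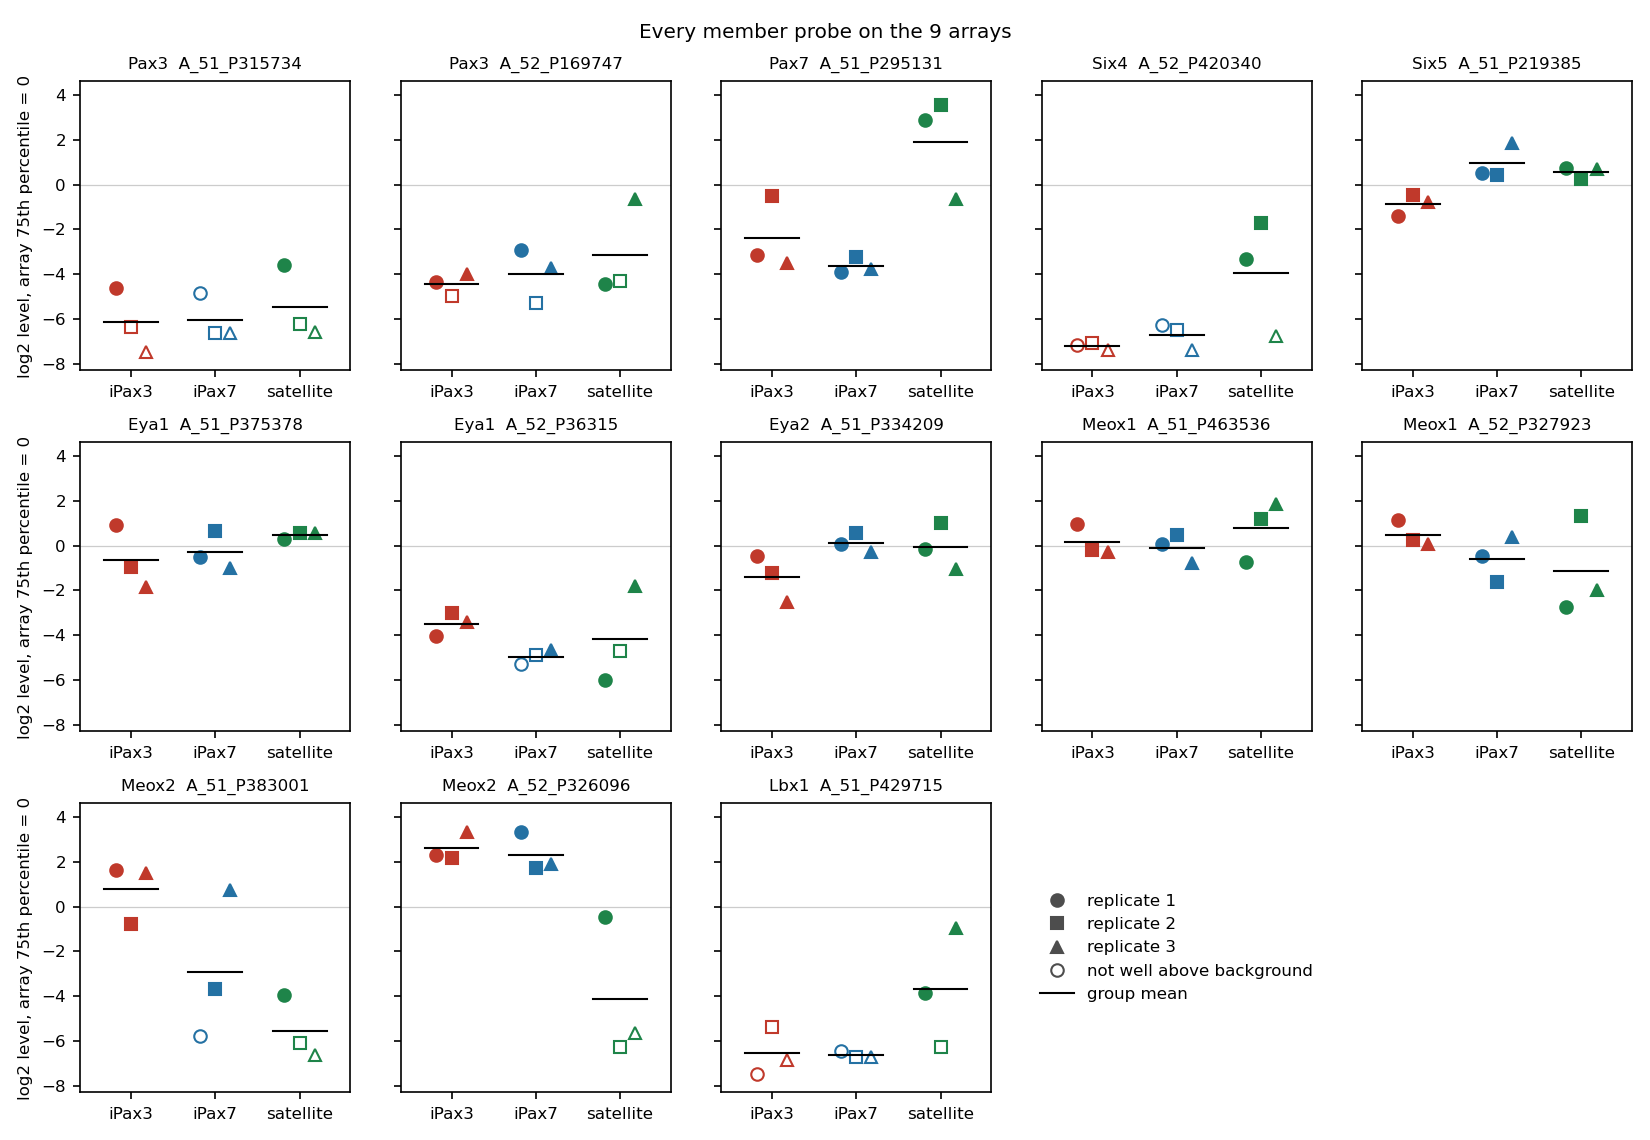
Levels of all 13 probes of the 9 genes (vertical axis, log2 signal with the 75th percentile of each array at 0) on the 3 iPax3, 3 iPax7 and 3 satellite arrays. The marker shape gives the replicate, an open marker a reading that was not well above background, and the bar the mean of the group. Meox2 probe A_52_P326096 reads 1.74 or higher on the 6 re-isolated arrays and −0.46 or lower on the 3 satellite arrays.

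Pax7 was well above background on all 9 arrays. The satellite arrays gave levels of 2.89, 3.53 and −0.66 for replicates 1, 2 and 3. Those of iPax3 replicates 1, 2 and 3 were −3.15, −0.53 and −3.52. The iPax7 replicates read −3.9, −3.25 and −3.76. Satellite replicates 1 and 2 were thus far above the rest, while satellite replicate 3 lay just under iPax3 replicate 2. The iPax7 arrays lay close together and below all satellite arrays, with a gap of 2.59 log2 units.

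The Pax7 difference was −4.32 ± 1.21 log2 units in iPax3 minus satellite cells (SE of the limma fit over all 9 arrays, Benjamini-Hochberg adjusted p = 0.196). It was −5.56 ± 1.21 in iPax7 cells (adjusted p = 0.108), and −4.94 ± 1.05 with both re-isolated groups combined (adjusted p = 0.0722). None passed the threshold of 0.05, and the intervals at 95% confidence, −7.06 to −1.59, −8.3 to −2.82 and −7.31 to −2.57, were wide. In these bulk samples, fewer cells that express a gene and less RNA per cell cannot be told apart. The combined Pax7 difference passed the test without satellite replicate 3 (−6.23, adjusted p = 0.0404), with another background correction named normexp (−3.88, adjusted p = 0.0363) and when only probes well above background on all 9 arrays were tested (−4.94, adjusted p = 0.0358). The iPax7 difference also passed without that replicate (−6.85, adjusted p = 0.0497). Most alternatives did not call Pax7. The combined difference passed in 1 of 9 fits with 1 array left out and in 2 of 10 other alternatives. Among the latter the limma adjusted p reached 0.341, and with slide as a random block it was 0.328 (−4.91). The iPax7 difference passed in 1 of 9 and 0 of 11.

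Other satellite cell markers differed in whether they shared the order of Pax7 over the satellite arrays. Sdc4 (5.02, 5.65 and 4.85 on replicates 1, 2 and 3), Chodl (2.65, 2.94 and 1.19) and Megf10 (−2.31, 2.92 and −2.47) had the same order. Satellite replicate 3, where Pax7 was lowest, gave the highest level of the 3 satellite arrays for the muscle cadherin gene Cdh15 (4.72), the calcitonin receptor gene Calcr (4.58) and Chrdl2 (5.44), and also for the integrin gene Itga7 (6.32). The signal at the 75th percentile of that array was 206.5, the lowest of all 9, against 849.0 and 353.9 on satellite replicates 1 and 2. In raw signal, Pax7 was 6310 and 4100 on satellite replicates 1 and 2 and 131 on replicate 3. On the re-isolated arrays it lay between 18.2 (iPax7 replicate 1) and 310 (iPax3 replicate 2). The part of array brightness in the Pax7 reading was not tested.

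Pax3 was read near the limit of detection. Probe A_52_P169747, which stands for the gene in the test, was well above background on 2 arrays of each group. Its levels were −4.36, −4.98 and −3.98 on the iPax3 replicates. On the iPax7 replicates they were −2.93, −5.28 and −3.72, and on the satellite replicates −4.45, −4.29 and −0.64. Satellite replicate 3 stood above the rest, the other 8 arrays lay between −5.28 and −2.93, and the groups overlapped. The differences were −1.31 ± 1.12 (iPax3 minus satellite, adjusted p = 0.632) and −0.85 ± 1.12 (iPax7 minus satellite, adjusted p = 0.788) by limma, and without satellite replicate 3 the latter turned to 0.4. The combined difference was −1.08 ± 0.97 (adjusted p = 0.622), and 0.16 without that array.

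The other Pax3 probe, A_51_P315734, is printed on 10 spots of each array, so the spread of its spots within an array can be given. All 10 spots were well above background on satellite replicate 1, with levels from −3.74 to −3.54. On iPax3 replicate 1, 8 of the spots were well above background, and on iPax3 replicate 2 and iPax7 replicate 1 it was 1 each. On the other 5 arrays it was 0. The standard deviation among spots of an array lay between 0.05 and 0.74 with a median of 0.26, against 1.24 between the means of the 9 arrays. The arrays therefore differed by more than their repeated spots did. On most arrays the probe was not well above background, so this spread cannot be read as a difference in Pax3 RNA. The array mean was −3.59 on satellite replicate 1, the highest of the 9, and −6.6 on satellite replicate 3, which was the highest array of the other Pax3 probe. The 2 probes thus disagreed on which array held the most Pax3 signal.

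**Figure D2:**
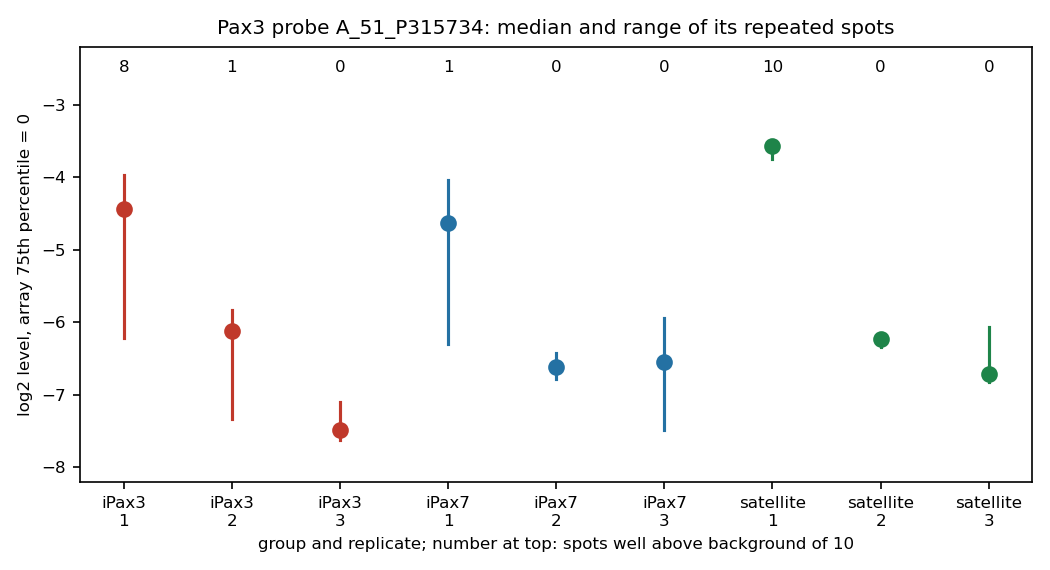
Repeated spots of Pax3 probe A_51_P315734 on each of the 9 arrays (vertical axis, log2 signal with the 75th percentile of the array at 0). The dot is the median of the spots, the line their range, and the number at the top counts the spots well above background. Satellite replicate 1 is highest, with all 10 spots between −3.74 and −3.54, and iPax3 replicate 3 is lowest, with a median of −7.48.

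Six5, a homeodomain partner of the Eya proteins, was well above background on all 9 arrays. Its levels were −1.4, −0.45 and −0.78 in the iPax3 replicates. The iPax7 replicates gave 0.53, 0.43 and 1.87 and the satellite replicates 0.76, 0.23 and 0.69. Every iPax3 array lay below every array of both other groups. The difference of iPax3 minus satellite was −1.44 ± 0.69 (limma, adjusted p = 0.427) and that of iPax7 minus satellite 0.38 ± 0.69 (adjusted p = 0.857). Between the lines, iPax7 minus iPax3, it was 1.82 ± 0.69, with an unadjusted p of 0.0263 and an adjusted p of 1 over all genes.

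Six4, a relative of Six5, was well above background only on satellite replicates 1 and 2, at −3.31 and −1.71, against −6.78 on satellite replicate 3. The iPax3 replicates read −7.17, −7.08 and −7.4 and the iPax7 replicates −6.29, −6.49 and −7.37, none of them well above background. Where a group had no reading well above background, only an approximate bound can be given, for which each of its arrays was set to its own detection limit if the reading was lower. By that bound Six4 was lower than in satellite cells by about 2.42-fold or more in iPax3 and about 1.64-fold or more in iPax7. The satellite mean used holds replicate 3 at its reading of −6.78, which was not well above background, so these are no strict minimum. These bounds carry no test, and satellite replicate 3 lay among the iPax7 arrays.

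Eya1, which encodes a co-activator, was read by 2 probes. Probe A_51_P375378 was well above background on all arrays, with levels of 0.9, −0.96 and −1.85 in the iPax3 replicates. The iPax7 replicates gave −0.5, 0.64 and −1, and the satellite replicates 0.31, 0.56 and 0.55. The satellite arrays were close to each other (mean 0.48 ± 0.14, SD, n = 3), and the arrays of both re-isolated groups lay on either side of them. Differences from satellite cells were −1.11 ± 0.85 for iPax3 (limma, adjusted p = 0.594) and −0.77 ± 0.85 for iPax7 (adjusted p = 0.749).

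The second Eya1 probe, A_52_P36315, gave −4.05, −3 and −3.4 in the iPax3 replicates, and −5.3, −4.91 and −4.67 in the iPax7 replicates. The satellite replicates gave −6.02, −4.71 and −1.81. All iPax3 arrays, and 1 iPax7 and 2 satellite arrays, were well above background. All iPax3 arrays lay above all iPax7 arrays, opposite to the order of the group means by the first probe, while the satellite arrays spanned both. The difference of iPax7 minus iPax3 was −1.48 ± 1.06 by the second probe and 0.35 ± 0.85 by the first, each with an adjusted p of 1 by limma.

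Eya2, the other co-activator gene of the set, was well above background on all arrays. Its levels in the iPax3 replicates were −0.46, −1.22 and −2.53, and in the iPax7 replicates 0.07, 0.56 and −0.3. The satellite replicates gave −0.15, 1.02 and −1.07. The iPax3 arrays lay below the iPax7 arrays without overlap, by a gap of 0.16, and the satellite arrays overlapped both. The difference of iPax7 minus iPax3 was 1.52 ± 0.82 (limma, unadjusted p = 0.0983, adjusted p = 1). That of iPax3 minus satellite was −1.34 ± 0.82 (adjusted p = 0.517) and that of iPax7 minus satellite 0.18 ± 0.82 (adjusted p = 0.95).

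Meox2, a homeodomain factor gene of limb mesenchyme, gave the largest differences from satellite cells among the 7 tested genes. Probe A_52_P326096, whose bases are split over the genome, read 2.29, 2.17 and 3.32 in the iPax3 replicates and 3.31, 1.74 and 1.89 in the iPax7 replicates. The satellite replicates read −0.46, −6.26 and −5.64, of which only replicate 1 was well above background. All 6 re-isolated arrays lay above all satellite arrays, by a gap of 2.2 log2 units. The group means were 2.6 ± 0.63, 2.31 ± 0.87 and −4.12 ± 3.18 (SD, n = 3 each), so the spread of the satellite group was several times that of the others.

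Meox2 differed from satellite cells by 6.72 ± 1.4 log2 units in iPax3 cells (limma, adjusted p = 0.0927) and by 6.43 ± 1.4 in iPax7 cells (adjusted p = 0.108), neither of which passed. With both groups combined it rose by 6.58 ± 1.22 (adjusted p = 0.0436, 95% interval 3.84 to 9.32). The combined call was lost when any array other than satellite replicate 1 was left out (adjusted p from 0.0789 to 0.166). Without satellite replicate 1, the only satellite array with a clear Meox2 signal, the rise was 8.41 (adjusted p = 0.00215). Satellite replicates 2 and 3 read −6.26 and −5.64, below their own detection limits of −4.14 and −4.66. These readings enter the satellite mean of every such fit, so the size of the Meox2 differences is uncertain. The combined call was also lost with slide (6.45, adjusted p = 0.192) or scan day (6.35, adjusted p = 0.214) as a random block. The difference fell from 6.58 to 3.76 with the normexp correction, where it still passed (adjusted p = 0.015).

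The second Meox2 probe, A_51_P383001, followed the first in the iPax3 replicates, at 1.63, −0.77 and 1.49, but not in all iPax7 replicates, at −5.78, −3.67 and 0.73. Its satellite levels were −3.97, −6.11 and −6.61. All iPax3 arrays lay above all satellite arrays, and the iPax7 arrays spanned nearly the range of both other groups. By limma on every probe, this probe differed by 6.35 ± 1.6 in iPax3 minus satellite (adjusted p = 0.166), 2.66 ± 1.6 in iPax7 minus satellite (adjusted p = 0.565) and −3.69 ± 1.6 in iPax7 minus iPax3 (adjusted p = 1). In that fit over 32966 probes, where 0.758% were called in the combined comparison, the difference of the split probe had an adjusted p of 0.053, so that the Meox2 call also rested on testing 1 probe per gene.

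**Figure D3:**
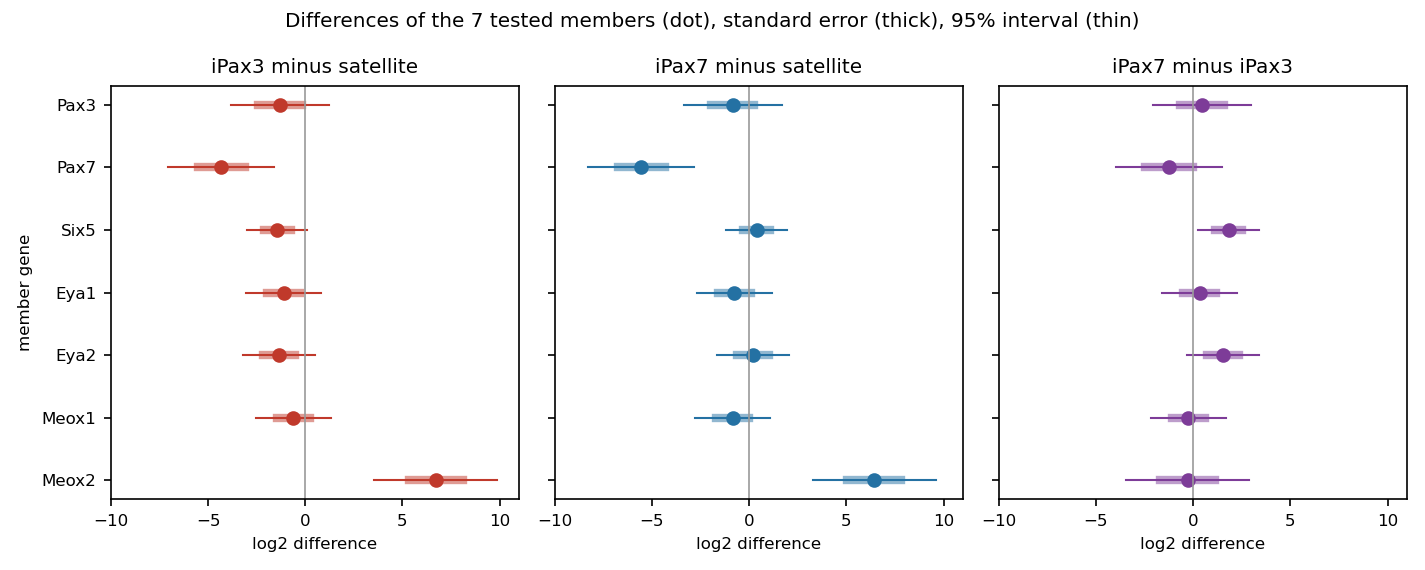
Differences of the 7 tested genes (horizontal axis, log2 units) for iPax3 minus satellite, iPax7 minus satellite and iPax7 minus iPax3. Dots are the fitted differences, thick lines the standard error and thin lines the 95% interval. Pax7 (−4.32 and −5.56) and Meox2 (6.72 and 6.43) lie apart from 0 in both comparisons with satellite cells, and Six5 (1.82) in the comparison between the lines.

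Meox1, a homeodomain factor gene of the somite, was well above background on all arrays by both of its probes, and the probes disagreed in direction. Probe A_51_P463536 gave 0.96, −0.21 and −0.28 in the iPax3 replicates, and 0.07, 0.45 and −0.79 in those of iPax7. Its satellite levels were −0.73, 1.17 and 1.86. Probe A_52_P327923 gave 1.16, 0.24 and 0.06 in the iPax3 replicates, and −0.49, −1.64 and 0.38 in those of iPax7. Its satellite levels were −2.74, 1.3 and −1.98. By both, satellite replicate 1 lay below and satellite replicate 2 above all or nearly all re-isolated arrays, while satellite replicate 3 was highest by the first probe and next to lowest by the second. The combined difference was −0.73 ± 0.74 (adjusted p = 0.664) by the first probe and 1.09 ± 0.97 (adjusted p = 0.641) by the second. No direction can therefore be given for Meox1.

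Lbx1 was well above background only on satellite replicates 1 and 3, at −3.84 and −0.94, against −6.29 on satellite replicate 2. The iPax3 replicates gave −7.46, −5.36 and −6.86 and the iPax7 replicates −6.45, −6.7 and −6.7, all below the limit. By the approximate bound used for Six4, with no test, Lbx1 was lower than in satellite cells by about 2.88-fold or more in iPax3 and about 1.95-fold or more in iPax7. Here the satellite mean holds replicate 2 at −6.29, not well above background, so again these are no strict minimum. Satellite replicate 2 lay above all iPax7 arrays and below iPax3 replicate 2. The arrays with a Lbx1 signal were not those with a Six4 signal: satellite replicate 1 had both, replicate 2 only Six4 and replicate 3 only Lbx1.

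By limma over 22705 genes, 0 of the 7 tested members passed in iPax3 minus satellite, where 0.432% of all genes were called, and 0 in iPax7 minus satellite, where 0.533% were called. At an unadjusted p under 0.05 the counts of members were 2 and 2, which were Pax7 and Meox2 each time, against 12.4% of all genes in each comparison. With the groups combined, 1 member passed, against 1.04% of all genes, and 2 had an unadjusted p under 0.05, against 15.4%. All 3 comparisons share the satellite arrays, so they are not separate evidence. In iPax3 minus satellite 6 of the 7 members were below 0, with a median difference of −1.31, beside 54.7% of all genes and a median of −0.19. In iPax7 minus satellite it was 4 of 7, with a median of −0.77, beside 54.1% and −0.15, and in the combined comparison 6 of 7, with a median of −0.73, beside 54.4% and −0.16. The groups did not overlap for 2 members in iPax3 minus satellite (Six5 and Meox2), where this held for 19% of all genes, and for 2 in iPax7 minus satellite (Pax7 and Meox2), beside 16.5%. In the combined comparison this held for Meox2 alone, beside 8.5% of all genes.

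Between the lines, 0 members passed in iPax7 minus iPax3, and limma called 0% of all genes (931, or 4.1%, had an unadjusted p under 0.05). Of the members, only Six5 had an unadjusted p under 0.05. Six5 and Eya2 were the 2 whose arrays did not overlap, beside 9.35% of all genes, and both were higher in iPax7. In this comparison 3 of the 7 members were below 0, with a median of 0.35, beside 46.7% of all genes. On the slide that held all 3 iPax3 arrays and iPax7 replicate 1, that array lay above the iPax3 mean by 1.41 for Six5 and 1.48 for Eya2. Differences of this size were not particular to them, being 1.51 for Pax3 and −1.5 for Pax7. For Meox2, Eya1 and Meox1 they were 0.72, 0.13 and −0.08. Only 1 iPax7 array enters these values. For the genes of the lines' names, the differences of iPax7 minus iPax3 were 0.46 ± 1.12 for Pax3, with a 95% interval of −2.06 to 2.98, and −1.24 ± 1.21 for Pax7, with an interval of −3.97 to 1.5. For Meox2 it was −0.28 ± 1.4, with an interval of −3.45 to 2.88. These intervals hold changes of several fold in both directions.

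Other genes of the same pathway did not pass the test. Of 8 further genes of these families and of the Dach partners, 5 could be tested and 0 were called by limma in any comparison (1 in re-isolated minus satellite cells at an unadjusted p under 0.05). The co-activator gene Eya4 differed most, by 4.24 ± 1.73 (adjusted p = 0.301) in re-isolated minus satellite cells. It read between −1.64 and 2.2 on the re-isolated arrays, and 1.14, −6.16 and −6.83 on the satellite replicates, the first of which was the only one well above background. The co-activator gene Eya3 differed by −0.44 ± 0.69 (adjusted p = 0.796). Of 7 other Pax genes, 6 could be tested and 0 were called (2 at an unadjusted p under 0.05), with Pax5 (−2.4 ± 0.81, adjusted p = 0.22), Pax1 (−1.71 ± 0.72, adjusted p = 0.308) and Pax2 (−0.98 ± 0.81, adjusted p = 0.594) differing most.

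Of 9 genes known as targets of Pax3 or Pax7 in myogenic cells, 8 could be tested and 1 was called. Fgfr4, a fibroblast growth factor receptor gene of muscle progenitors, was lower in re-isolated cells and fell by 3.03 ± 0.57 on the log2 scale (limma, adjusted p = 0.0469). Its levels were 4.48, 4.46 and 5.04 in satellite cells, 1.71, 1.7 and 1.71 in iPax3 cells and 2.45, 1.12 and 1.06 in iPax7 cells. Satellite and re-isolated arrays thus did not overlap, which held for 8.5% of all genes. The Fgfr4 call was lost when any array other than iPax7 replicate 1 or satellite replicate 1 was left out, with adjusted p up to 0.148. It was also lost with quantile normalization (−2.63, adjusted p = 0.0551), with no filter on dim probes (adjusted p = 0.0557), and with slide (adjusted p = 0.193) or scan day (adjusted p = 0.251) as a random block. Itm2a, a membrane protein gene, differed by 5.22 ± 1.46 (adjusted p = 0.155), and Myod1, the myogenic determination factor gene, by −1.72 ± 0.57 (adjusted p = 0.217). Myf5, the other early determination factor gene, was well above background on 1 satellite array and no other, and was not tested.

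Of 8 factors of the paraxial mesoderm and somite, where Meox genes act, 7 could be tested and 0 were called by limma (2 at an unadjusted p under 0.05). Tbx18, a T-box factor gene, differed by 4.11 ± 1.36 (adjusted p = 0.214) and was well above background on all 3 iPax3 arrays, 1 iPax7 array and no satellite array. The forkhead factor gene Foxc1 differed by 2.45 ± 0.98 (adjusted p = 0.287) and Mesp2 by −1.24 ± 0.93 (adjusted p = 0.549).

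The levels of cell type markers are given beside these results, each list as log2 of its summed linear signal. In such a sum the markers with the brightest probes weigh most. Markers of satellite cells had a summed level between 6.89 and 7.68 on the satellite arrays, 5.3 to 5.45 on the iPax3 arrays and 4.89 to 6.06 on the iPax7 arrays. Of the 10 tested, Pax7 among them, 9 were lower in re-isolated cells, with a median of −3.03, and 1 was called: Chrdl2, a secreted BMP antagonist gene, fell by 9.12 ± 0.6 (limma, adjusted p = 0.000624). Cdh15 (−4.25 ± 0.93, adjusted p = 0.0764) missed the threshold, as Pax7 did. Markers of fibro-adipogenic progenitors and fibroblasts had a summed level between 8.51 and 9.33 on the iPax3 arrays, 8.78 and 9.73 on the iPax7 arrays and 2.1 and 4.52 on the satellite arrays.

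All 7 of those fibroblast markers were higher in re-isolated cells, and 6 were called by limma. Thy1 missed the threshold (3.1 ± 0.78, adjusted p = 0.118). Called with the largest differences were the matrix genes Dcn (8.71 ± 0.65, adjusted p = 0.000728) and Col1a1 (6.3 ± 0.65, adjusted p = 0.00319) and the receptor gene Pdgfra (7.9 ± 0.69, adjusted p = 0.00145). These 3 calls were kept in all alternatives of the combined comparison, while those of Col3a1, Lum and Ly6a were lost in some. All 7 were well above background on the re-isolated arrays, and all but 1 on every satellite array. Satellite replicate 1, where Meox2 was highest among the satellite arrays, also had their highest summed fibroblast marker level. The single markers did not share that order. Col1a1, Col3a1, Dcn and Thy1 were highest on satellite replicate 1 among the satellite arrays. Pdgfra (−4.36, −2.91 and −2.24 on replicates 1, 2 and 3) and Ly6a (−1.86, −0.6 and 0.16) were lowest there, and Lum was highest on replicate 3. The part of cell composition in the levels of Meox2 and Pax7 was not tested.

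Among the other cell types, endothelial, leukocyte, neural crest and muscle fibre markers had 0 called genes in re-isolated minus satellite cells by limma, and at an unadjusted p under 0.05 it was 1 of the neural crest markers and 0 of the others. The smooth muscle myosin gene Myh11 was lower (−2.95 ± 0.56, adjusted p = 0.0482), the only 1 of 5 pericyte and smooth muscle markers called. That call was lost in 8 of the 9 fits that left out 1 array, satellite replicate 1 being the exception. Markers of Schwann cells and melanocytes, derivatives of the neural crest where Pax3 also acts, had summed levels from 1.83 to 3.09 on the iPax3 arrays, 2.46 to 3.02 on the iPax7 arrays and 2.9 to 4.17 on the satellite arrays. Of these 6 markers, the crest factor gene Sox10 read 0, −1.11 and 0.04 on the satellite arrays and was well above background on all 9 arrays.

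**Figure D4:**
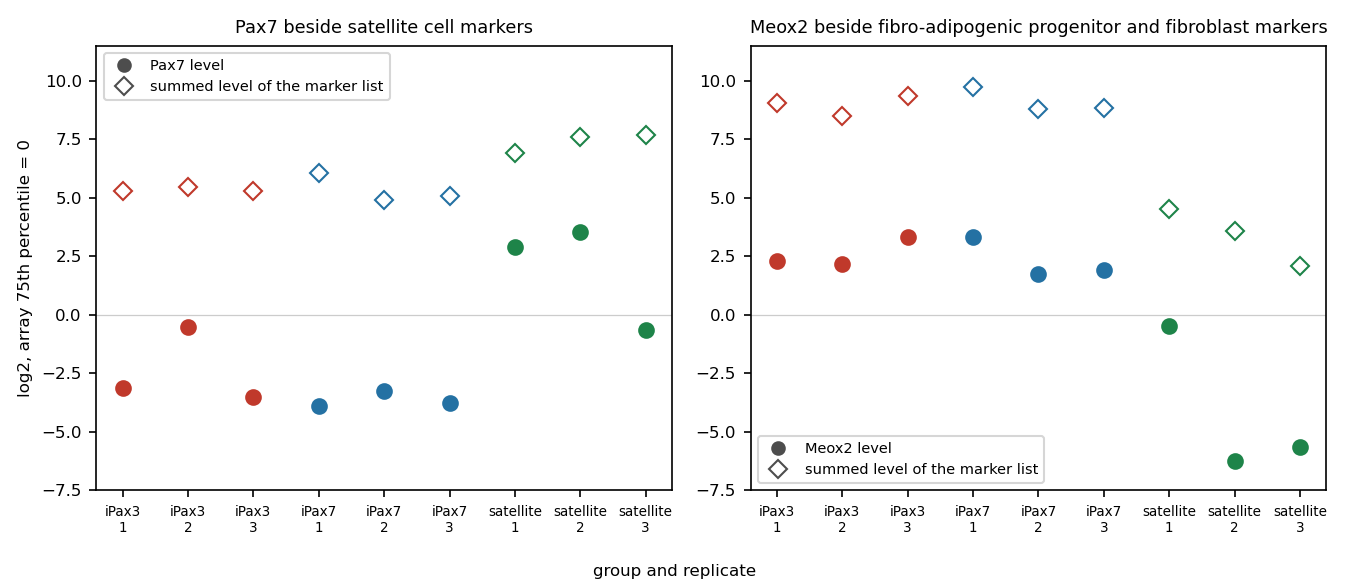
Left, the level of Pax7 (dots) and the summed level of the tested satellite cell markers (diamonds, a list that holds Pax7) on each array. Right, the level of Meox2 (dots) and the summed level of the fibroblast markers (diamonds). Both vertical axes are log2 with the 75th percentile of the array at 0. The satellite cell sum is 6.89 to 7.68 on the satellite arrays, where Pax7 ranges from −0.66 to 3.53. Itga7 (4.86 to 6.32 there) and other bright markers weigh most in that sum, so it need not follow Pax7. The fibroblast sum is 2.1 to 4.52 on the satellite arrays.

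The genes whose profile over the 9 arrays was most like that of each tested member were taken by the root mean square difference of profiles centred on their own mean, among 22562 other genes. For Meox2 they were the gap junction gene Gja1 (0.6), Vat1 (0.6) and the SUMO-activating enzyme gene Sae1 (0.61), against a standard deviation of Meox2 itself of 3.69. Of these, Vat1 rose in re-isolated cells by 7.15 log2 units (limma, adjusted p = 0.0264), and Gja1 (6.17, adjusted p = 0.0771) and Sae1 (5.9, adjusted p = 0.0744) missed the threshold. For Pax7, with a standard deviation of 2.89, they were AK046926 (0.65), Scnm1 (0.98) and E430014L09Rik (0.99). None of these is in the marker lists used here. The profile of the other tested members was followed within 0.27 to 0.52, but their own standard deviations were only 0.9 to 1.38. For Pax3 the nearest genes were Hapln2 (0.33), Gulo (0.34) and 0610039H22Rik (0.36), and for Meox1 Arhgef38 (0.27), H1f4 (0.29) and Plaat5 (0.29). For Eya2 they were Slx4 (0.46), Crxos (0.5) and Jak3 (0.52), for Eya1 Zdhhc17 (0.32), Nxph3 (0.36) and Ltbp2 (0.38), and for Six5 Trmt13 (0.34), Vps35l (0.35) and the unnamed probe A_52_P576678 (0.37). These likenesses are a description of 9 arrays that share slides and amplification.

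**Figure D5:**
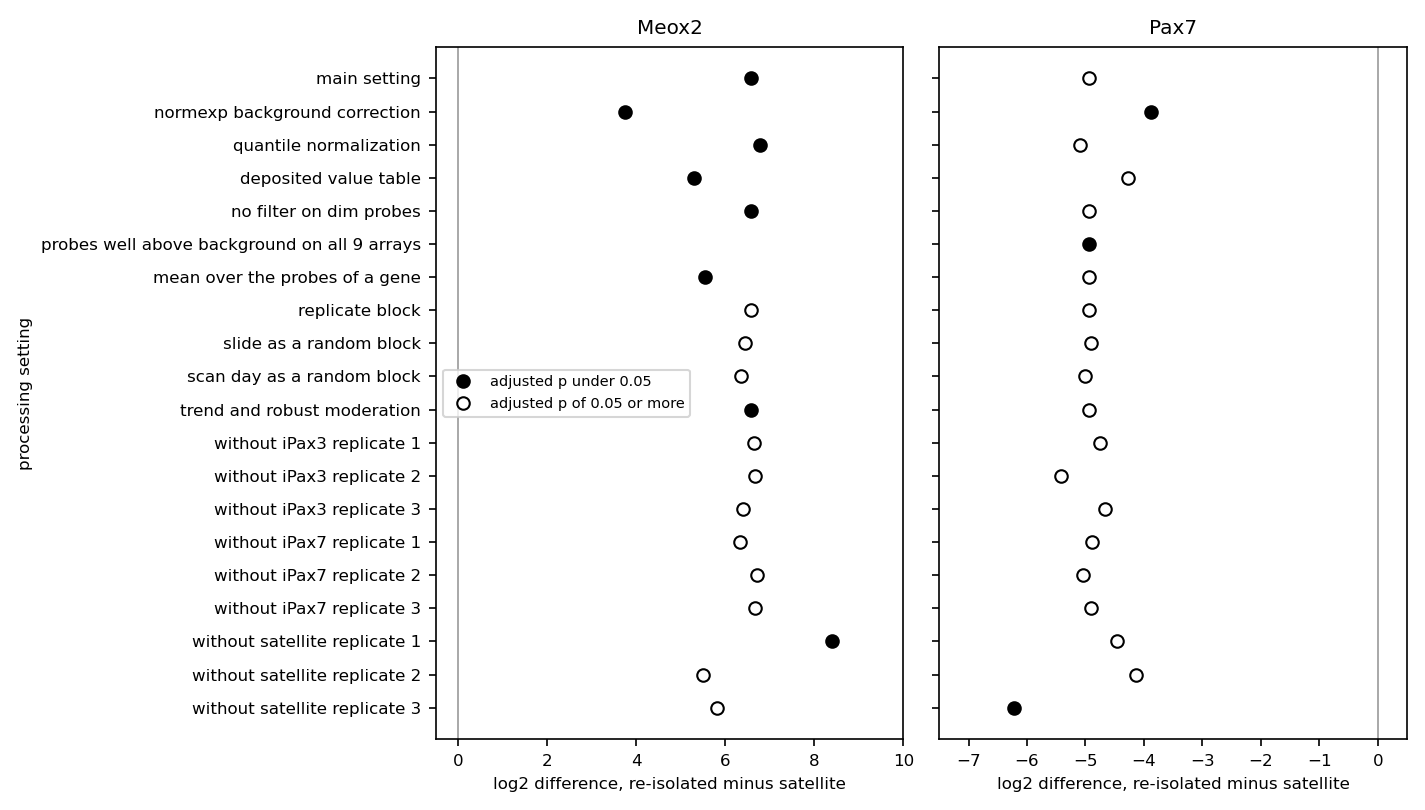
Combined difference of re-isolated minus satellite cells (horizontal axis, log2 units) for Meox2 (left) and Pax7 (right) under each processing setting or with 1 array left out. Filled dots have an adjusted p under 0.05 and open dots one of 0.05 or more. Meox2 lies between 3.76 and 8.41 and Pax7 between −6.23 and −3.88, and neither changes sign.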

How the data were processed

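The authors' scanner tables hold intensity values from Agilent Feature Extraction, version 10.5.1.1 by the file headers, which set the well-above-background flag at 13 standard deviations. A deposited table of log2 values, for which the submitters' processing notes name limma, served as an alternative. From the processed signal, log2 values minus the 75th percentile of each array's non-control spots were computed, leaving out outlier-flagged spots and averaging the spots of a probe. Probes well above background on at least 3 arrays, with values on at least 7 arrays and 2 per group, were kept, and the probe with the highest mean stood for its gene. A single limma 3.58.1 fit (R 4.3.3) over all 9 arrays gave differences, with Benjamini-Hochberg adjustment over 22705 genes at 0.05. Between 57.2% and 79.9% of spots were well above background, no spot was saturated, and the number of arrays limits the precision. Nothing ties single samples to single animals, so p-values reflect the spread among these samples, part of which may be technical. Deviations of same-numbered samples correlated at −0.13 to 0.06, so no pairing by number was seen and none was used in the main fit. With 3 arrays a group these correlations cannot exclude that equal numbers share an experiment.

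The members, lists and tests were chosen with earlier results of these data known. Named besides the members were, per list, called genes and the 3 with the largest combined difference, and per tested member the 3 nearest profiles. A gene that this rule names is not reported here. Marker genes and Myf5 were named after their values were seen. Alternatives covered background correction, normalization, filters, probe choice, blocks and left-out arrays.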

Additional observations from a re-analysis of the deposited data

How the results depend on the processing

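For the members, 515 of the 552 gene-level values under an alternative kept their direction and their side of the threshold, 9 passed only under the alternative, 11 lost a call and 17 reversed. All reversed values belong to differences that did not pass. Whether the replicate number pairs samples is not known. With it as a block, 37, 55 and 115 genes were called in iPax3, iPax7 and combined minus satellite, against 98, 121 and 236. In the combined comparison that limma fit called 0 members (Meox2 adjusted p = 0.0571), and Fgfr4 did not pass (adjusted p = 0.118). With slide as a random block these counts were 14, 43 and 46, and with scan day 27, 36 and 43, with 0 combined members each. The deposited table called 186 and 196 genes and 1 member each in iPax3 and iPax7 minus satellite, and normexp 1 member in iPax3 and 2 combined. Fitting only the groups compared called 56 and 38 genes, probes well above background on all 9 arrays 76 in iPax7 minus satellite, and every probe on its own 0 combined members. In iPax7 minus iPax3, quantile normalization, the mean over probes and slide as a random block called 1 gene each. With 1 array left out, the genes called ranged from 19 to 451 in iPax3, 35 to 490 in iPax7 and 75 to 692 combined minus satellite, each highest without satellite replicate 1, and the members called from 0 to 1 in each of these (Meox2 without satellite replicate 1, Pax7 without satellite replicate 3). The mean over probes turned Meox1 to 0.51 (iPax3 minus satellite) and 0.18 (combined) and Eya1 to −0.57 (iPax7 minus iPax3), as the probes of each disagree. Slide turned Meox2 between the lines to 0.22 (random) and 0.72 (fixed term), and normexp the second Eya1 probe in iPax3 minus satellite to −0.01. With 1 array left out, iPax7 minus iPax3 ranged from −0.78 to 0.08 for Meox2, −0.51 to 0.16 for Meox1, −0.26 to 1.12 for Eya1 and −0.06 to 1.11 for Pax3. iPax7 minus satellite ranged from −0.33 to 0.72 for Eya2, −0.09 to 0.63 for Six5 and −1.51 to 0.4 for Pax3, and the combined Pax3 difference from −1.74 to 0.16. Other causes were not tested. Meox2 could not be tested among probes well above background on all 9 arrays, and dim signal limits Pax3, Six4 and Lbx1.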

Other observations

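Among genes that mark the satellite arrays beside Pax7, the levels did not follow a common order of arrays. Calcr read 3.57, −3.06 and 4.58 on satellite replicates 1, 2 and 3, Megf10 −2.31, 2.92 and −2.47, and Cdh15 2.32, 2.97 and 4.72. Pax7 and Megf10 were thus lowest on satellite replicate 3, Calcr on replicate 2 and Cdh15 on replicate 1, while Chrdl2 lay between 4.54 and 5.44 on all of them. Itga7, the integrin gene of muscle cells, read 4.37 to 5.23 on the re-isolated arrays and 4.86 to 6.32 on the satellite arrays, and its difference did not pass (−1.1 ± 0.59, limma adjusted p = 0.408). Cd34, a surface marker shared by satellite cells and fibroblasts, was the only satellite cell marker above 0 in re-isolated minus satellite cells (4.57 ± 1.14, adjusted p = 0.115).

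Fgfr4 and Myod1 lay apart between re-isolated and satellite arrays without overlap, as 8.5% of all genes did, although Pax7 did not. Itm2a, of the same list of targets, did not overlap either, but it was higher in re-isolated cells. It read between 3.31 and 5.23 on the re-isolated arrays and 1.76, 0.94 and −5.51 on the satellite arrays. Myod1 read between 2.71 and 3.84 on the 6 re-isolated arrays and 4.21, 4.88 and 5.54 on the satellite arrays. Tek, an endothelial receptor gene, read 3.25, 1.88 and 0.63 on the iPax7 arrays and −5.79, −6.34 and −7.61 on the iPax3 arrays, none of the latter well above background (limma, adjusted p of iPax7 minus iPax3 = 0.71).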
